A study of Oryza sativa with 8 samples.

Results

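Nuclear photosynthesis genes were examined in rice stems from plants with or without yellow stem borer, an insect whose caterpillars feed inside the stem. The rule named 31 loci of the MSU release 7 rice annotation as genes for the Rubisco small subunit, for chlorophyll a/b binding proteins and for nuclear-encoded subunits of photosystems I and II. Of these, 30 were found in both count tables, which list 55986 gene models, and LOC_Os12g19394 was not analysed here. The labels describe 4 groups of 2 samples each, namely infested SM92, uninfested SM92, infested SM and uninfested SM. SM92 is called tolerant to the insect and SM susceptible, and no allele or pedigree is given for either. Infested plants had field-grown tillers infested by hand at booting, the stage at which the young panicle swells inside the leaf sheath. All stem pieces were taken at 72 hours, uninfested ones at the matching time.

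Photosynthesis in a green stem uses the same machinery as in a leaf. Chlorophyll a/b binding proteins form the antennae that capture light and pass its energy to the reaction centres. Photosystem II splits water and photosystem I reduces ferredoxin, and each holds proteins made from nuclear genes beside those made from plastid genes. Rubisco fixes carbon dioxide, and its small subunit is made in the cytosol from a family of nuclear genes and imported into the plastid. These genes are commonly switched on together by light, and in rice the green tissues of the stem are the leaf sheath and the outer layers of the culm. The deposited tables give locus identifiers without names. The division of the loci into classes used below follows general knowledge of the MSU gene models and was not checked against an annotation here.

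Each line had its own count table with 4 libraries, Y3, Y4, Y7 and Y8 for SM92 and Y1, Y2, Y5 and Y6 for SM. The sample descriptions name the table of each line, so the line of every library is known. The library names show neither infestation nor replicate number, so infested and uninfested libraries could not be told apart and no infestation contrast was made. Each line's 4 libraries together hold 2 infested and 2 uninfested samples, so the spread within a line includes any response to the insect. Counts per library ranged from 50540724 to 57603629 fragments. Within lines, 3 library pairs were nearly the same: Y3 with Y4, Y7 with Y8, and Y5 with Y6. Their counts differed by a mean chi-square per gene of 1.99, 1.70 and 3.47, where sampling alone gives 1, whereas Y1 with Y2 gave 112 and all other pairs within a line gave 299.9 or more. The near-identical libraries differed by slightly more than sampling noise and were kept as separate samples, but every test was also run with each such pair summed and counted as 1 library, leaving 2 units of SM92 against 3 of SM. Nothing in the labels says that samples came from separate plants, so p-values measure only the spread between these libraries. Secondary wall cellulose synthase genes, which mark lignifying stem tissue, were counted in every library.

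All 30 loci had counts in all 8 libraries, from 33 fragments for LOC_Os02g52650 in a SM library to 78069 for LOC_Os12g19381 in a SM92 library. Together they took 0.319% to 0.523% of all counted fragments in SM92 and 0.290% to 0.382% in SM. Levels are given as CPM (counts set to a common library size, here the total multiplied by edgeR's TMM factor) and as CPM per kilobase of gene model where loci are compared with each other. Per kilobase, the highest mean over all libraries was that of the photosystem II antenna locus LOC_Os01g41710, at 411 CPM per kilobase, which ranked 70 among all 55986 gene models. It was followed by the photosystem II subunit loci LOC_Os07g05360 and LOC_Os01g31690, at 177 and 158 CPM per kilobase. The lowest were LOC_Os01g64960, a photosystem II subunit locus, at 2.30 CPM per kilobase, and LOC_Os02g52650, a photosystem I antenna locus, at 1.14 CPM per kilobase. The members' gene models had a median length of 1569.5 bases, against 2393 bases for all gene models. These lengths run from the start to the end of the model, introns included, so ranks per kilobase also depend on intron length. LOC_Os12g19381 was far longer than the others, at 15886 bases, so its level per kilobase is low for its count.

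**Figure D1:**
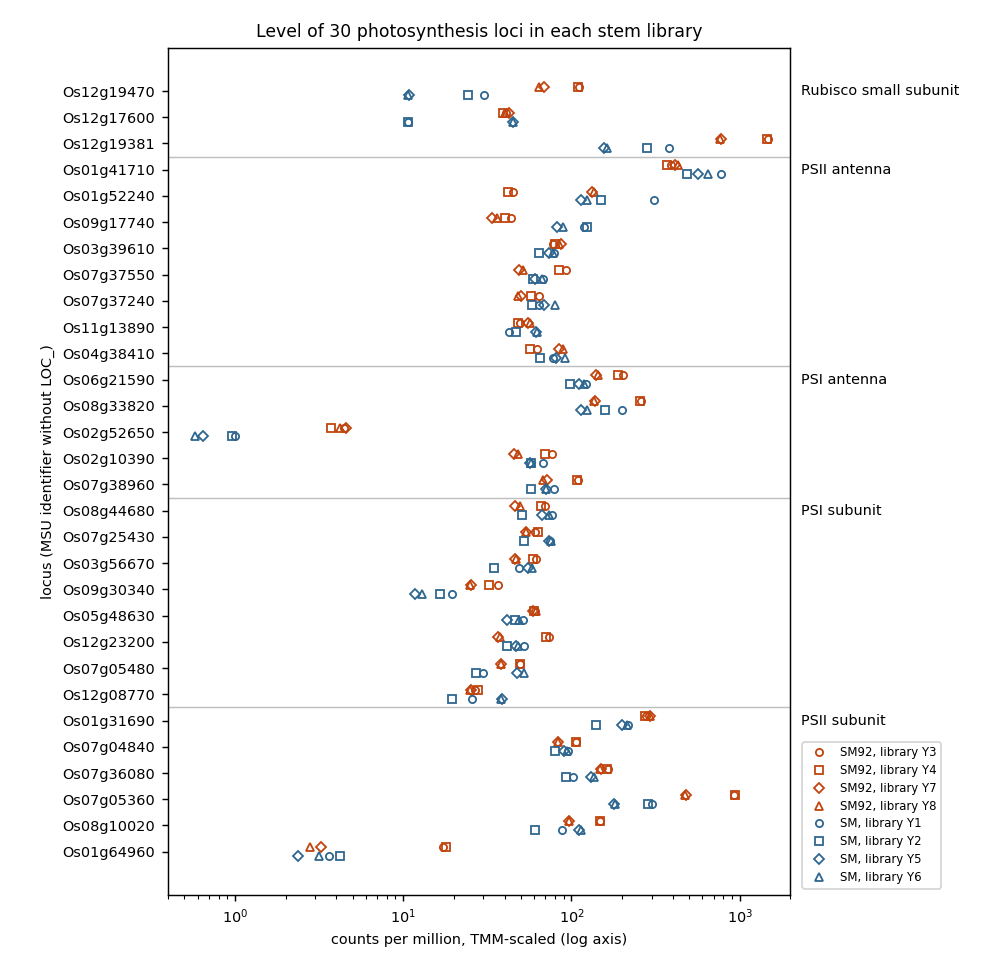
Level of the 30 loci in each of the 8 libraries, in TMM-scaled CPM on a log axis, with loci down the page by class (PSI and PSII: photosystems I and II). Each symbol is 1 library, SM92 in orange above SM in blue; the SM92 libraries lie apart from and above the SM libraries for LOC_Os12g19470, LOC_Os12g19381, LOC_Os07g05360 and LOC_Os02g52650, and below them for LOC_Os09g17740.

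SM92 was compared with SM over all libraries to ask how the photosynthesis genes of the tolerant line differ from those of the susceptible one. Of the 30 loci, 9 were higher in SM92, 2 were lower and 19 did not pass the test (edgeR's quasi-likelihood test over 24892 genes, adjusted p below 0.05). Across all genes tested the difference passed in 36.4%, with 16.7% higher and 19.7% lower in SM92, so the overall share among the 30 loci, 36.7%, was near the background. The 11 loci called were also those whose SM92 and SM libraries did not overlap, a property of 40.6% of all genes tested, with 19.4% wholly above and 21.2% wholly below SM. The median log2 fold change was 0.19 over the 30 loci and 0.0029 over all genes tested. With near-identical libraries joined, 2 of the 30 loci passed, beside 9.41% of all genes. These were LOC_Os02g52650, higher in SM92 like 4.38% of all genes, and LOC_Os09g17740, lower in SM92 like 5.03%. When libraries were scaled by their totals alone, the median of all genes moved by -0.17 and the calls became 5 higher and 2 lower among the 30 loci, and 2959 higher and 6268 lower among all genes in place of 4152 and 4915. In bulk stem RNA, fewer cells of a type and less RNA per cell cannot be told apart.

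In the Rubisco small subunit class, 2 of 3 loci were higher in SM92, beside 16.7% of all genes tested. Only LOC_Os02g52650 among the 30 loci had a higher log2 fold change than these 2. LOC_Os12g19381 and LOC_Os12g19470 were more than 4-fold higher in SM92, while LOC_Os12g17600 was not called. LOC_Os12g19381 (chromosome 12, 11262563 to 11278448, plus strand) had 1482, 1454, 772 and 768 CPM in SM92 libraries Y3, Y4, Y7 and Y8, against 380.1, 282, 156 and 163 CPM in SM libraries Y1, Y2, Y5 and Y6. The lowest SM92 library was above the highest SM library, and within each line the near-identical libraries lay side by side, Y3 with Y4, Y7 with Y8 and Y5 with Y6. Its log2 fold change was 2.19 ± 0.39 (SE), with an edgeR adjusted p of 0.00327, and 2.04 ± 0.47 with an edgeR adjusted p of 0.0585 once near-identical libraries were joined.

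LOC_Os12g19470 (chromosome 12, 11320267 to 11322547, plus strand) followed the same order at a lower count, with 111, 109, 69.1 and 64.1 CPM in SM92 and 30.4, 24.4, 10.8 and 10.7 CPM in SM. The lines did not overlap. Its log2 fold change was 2.21 ± 0.40 (SE; edgeR adjusted p = 0.00387), and edgeR's adjusted p was 0.0614 with near-identical libraries joined. LOC_Os12g17600 (chromosome 12, 10080398 to 10081661, minus strand) behaved otherwise. It had 40.9, 39.0, 42.6 and 40.1 CPM in SM92, against 10.6, 10.6, 45.0 and 45.1 CPM in SM. The SM92 libraries were nearly equal, and the SM libraries split into Y1 and Y2 below and Y5 and Y6 above the SM92 values, so the lines overlapped (log2 fold change 0.55 ± 0.51, SE; edgeR adjusted p = 0.433). Members of this family are similar in sequence, and the authors' command did not count reads that align to several places, so the split of fragments among them is uncertain.

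Among the 8 photosystem II antenna loci, 2 were lower in SM92, beside 19.7% of all genes tested, none was higher and 6 did not pass. LOC_Os01g41710 (chromosome 1, 23607348 to 23608583, plus strand), the most abundant locus of all 30 per kilobase, had 391, 367, 412 and 428 CPM in SM92 and 769, 486, 565 and 648 CPM in SM. The SM92 libraries were close together and all below the SM libraries. Its log2 fold change was -0.63 ± 0.16 (SE), with an edgeR adjusted p of 0.0171. The edgeR adjusted p was 0.052 without SM92 library Y4 and 0.23 with near-identical libraries joined.

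LOC_Os09g17740 (chromosome 9, 10845678 to 10847156, plus strand) showed the clearest fall in the class. It had 43.5, 40.5, 33.9 and 36.1 CPM in SM92, against 119, 123, 81.5 and 89.2 CPM in SM. Every SM92 library was below every SM library, by a log2 fold change of -1.42 ± 0.16 (SE; edgeR adjusted p = 0.000419). The difference also passed with near-identical libraries joined, at -1.49 ± 0.25 and an edgeR adjusted p of 0.0283.

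LOC_Os01g52240 had the second highest level per kilobase in the class, 83.8 CPM per kilobase in SM92 and 165 in SM on average. It was uneven within both lines, with 44.8, 41.9, 132 and 136 CPM in SM92 and 309, 149.5, 114 and 124 CPM in SM. Libraries Y7 and Y8 of SM92 fell within the SM range, and the difference did not pass (log2 fold change -0.97 ± 0.51, SE; edgeR adjusted p = 0.171). The other 5 loci of the class, LOC_Os03g39610, LOC_Os07g37550, LOC_Os07g37240, LOC_Os11g13890 and LOC_Os04g38410, had log2 fold changes between -0.30 and 0.16, and the lines overlapped in all 5. The class median was -0.21, and all 8 loci together had 2 positive and 6 negative log2 fold changes.

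Of the 5 photosystem I antenna loci, 2 were higher in SM92, beside 16.7% of all genes tested, and 3 did not pass. The most abundant per kilobase was LOC_Os08g33820, at 134 CPM per kilobase in SM92 and 101 in SM. It had 259, 254, 137 and 137 CPM in SM92 and 198, 158, 114 and 123 CPM in SM, so SM92 libraries Y7 and Y8 lay inside the SM range (log2 fold change 0.41 ± 0.29, SE; edgeR adjusted p = 0.298). LOC_Os06g21590 (chromosome 6, 12452655 to 12454197, plus strand) had 203, 188, 139 and 145 CPM in SM92 and 121, 98.3, 111 and 118 CPM in SM. Here the lines did not overlap, and the log2 fold change was 0.59 ± 0.15 (SE; edgeR adjusted p = 0.0175). That call was lost when libraries were scaled by their totals alone, at an edgeR adjusted p of 0.103, without the 20 most abundant gene models in the library size, at 0.078, and with near-identical libraries joined, at 0.158.

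LOC_Os02g52650 (chromosome 2, 32199522 to 32201722, minus strand) was the least abundant of the 30 loci and had their highest fold difference. Its counts were 234, 200, 204 and 189 fragments in SM92 and 57, 57, 39 and 33 in SM. Scaled, these were 4.44, 3.73, 4.58 and 4.20 CPM in SM92 and 1.00, 0.960, 0.646 and 0.582 CPM in SM. The SM92 libraries were nearly equal and far above the SM libraries, with a log2 fold change of 2.41 ± 0.23 (SE; edgeR adjusted p = 0.000181). With near-identical libraries joined the value was 2.31 ± 0.36 and the edgeR adjusted p 0.0246. The other 2 loci, LOC_Os02g10390 and LOC_Os07g38960, had log2 fold changes of 0.00 and 0.35 with overlapping lines.

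Of the 8 photosystem I subunit loci, 2 were higher in SM92, beside 16.7% of all genes tested, and 6 did not pass. The class median log2 fold change was 0.14. LOC_Os09g30340 (chromosome 9, 18469702 to 18471297, plus strand) had 36.4, 32.5, 25.2 and 24.8 CPM in SM92 and 19.6, 16.6, 11.7 and 12.9 CPM in SM. The lines did not overlap, and the log2 fold change was 0.97 ± 0.21 (SE; edgeR adjusted p = 0.00778, and 0.112 with near-identical libraries joined). LOC_Os05g48630 (chromosome 5, 27878556 to 27879619, plus strand) was the steadiest member within SM92, at 60.9, 59.5, 59.0 and 61.3 CPM, against 51.2, 45.9, 41.7 and 48.9 CPM in SM. Its difference was small, with a log2 fold change of 0.36 ± 0.09 (SE; edgeR adjusted p = 0.0151, and 0.234 with near-identical libraries joined), and it was lost under scaling by library totals, at an edgeR adjusted p of 0.187, and without the 20 most abundant gene models in the library size, at 0.116.

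The 2 photosystem I subunit loci with the highest level per kilobase did not pass. LOC_Os08g44680 (chromosome 8, 28083293 to 28084298, minus strand) had 69.6, 65.6, 46.4 and 49.4 CPM in SM92 and 76.4, 51.1, 66.8 and 73.6 CPM in SM (log2 fold change -0.21 ± 0.18, SE; edgeR adjusted p = 0.391). LOC_Os07g25430 (chromosome 7, 14533304 to 14534386, plus strand) had 60.8, 63.2, 53.98 and 53.5 CPM in SM92 and 74.3, 52.6, 74.0 and 75.3 CPM in SM. Only SM library Y2 kept the lines of this locus from separating. Its log2 fold change was -0.26 ± 0.14 (SE; edgeR adjusted p = 0.183), and without Y2 it was -0.37 and passed, at an edgeR adjusted p of 0.0194. The remaining 4 loci of the class had log2 fold changes from -0.21 to 0.22.

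Of the 6 photosystem II subunit loci, 3 were higher in SM92, beside 16.7% of all genes tested, and 3 did not pass. All 6 had a positive log2 fold change, except LOC_Os07g04840, which gave -0.07 under scaling by library totals and -0.02 when the 20 most abundant gene models were left out of the library size. LOC_Os07g05360 (chromosome 7, 2453960 to 2456611, plus strand) had 924, 939, 479.6 and 470.2 CPM in SM92 and 303, 285, 179 and 181 CPM in SM. Every SM92 library was above every SM library, and within SM92 libraries Y3 and Y4 were well above Y7 and Y8. Its log2 fold change was 1.57 ± 0.32 (SE; edgeR adjusted p = 0.00637, and 0.0805 with near-identical libraries joined). LOC_Os01g31690 (chromosome 1, 17349311 to 17350816, plus strand) had 279, 272, 292 and 294 CPM in SM92 and 217, 139, 199.9 and 213 CPM in SM. The SM92 libraries were close together and above all SM libraries, with a log2 fold change of 0.56 ± 0.15 (SE; edgeR adjusted p = 0.0212). Leaving out Y7 or Y8 brought the edgeR adjusted p to 0.0501 and 0.0516, scaling by library totals to 0.0639, and joining near-identical libraries to 0.207.

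LOC_Os07g36080 (chromosome 7, 21574435 to 21576033, plus strand) had 165, 163, 151 and 149 CPM in SM92 and 102, 92.3, 131 and 137 CPM in SM, again with no overlap. Its call was the weakest of the 11, with a log2 fold change of 0.44 ± 0.14 (SE; edgeR adjusted p = 0.0453), and it was lost when any 1 library other than Y6 was left out, with an edgeR adjusted p between 0.0513 and 0.0989. It was also lost with no filter on low counts (edgeR adjusted p = 0.0708), without the 20 most abundant gene models in the library size (0.136), under scaling by library totals (0.199) and with near-identical libraries joined (0.217). LOC_Os01g64960 (chromosome 1, 37696778 to 37699752, plus strand) varied most within SM92, where it had 17.3 and 17.9 CPM in Y3 and Y4 and 3.26 and 2.77 CPM in Y7 and Y8, against 3.64, 4.23, 2.37 and 3.18 CPM in SM. Only Y3 and Y4 stood above the SM libraries. Its log2 fold change of 1.62 ± 0.64 (SE) did not pass, at an edgeR adjusted p of 0.0833, while DESeq2 gave an adjusted p of 0.0285. Without Y7 or Y8 the edgeR adjusted p was 0.0447 and 0.0348. LOC_Os07g04840 and LOC_Os08g10020 had log2 fold changes of 0.09 and 0.39 and overlapping lines.

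**Figure D2:**
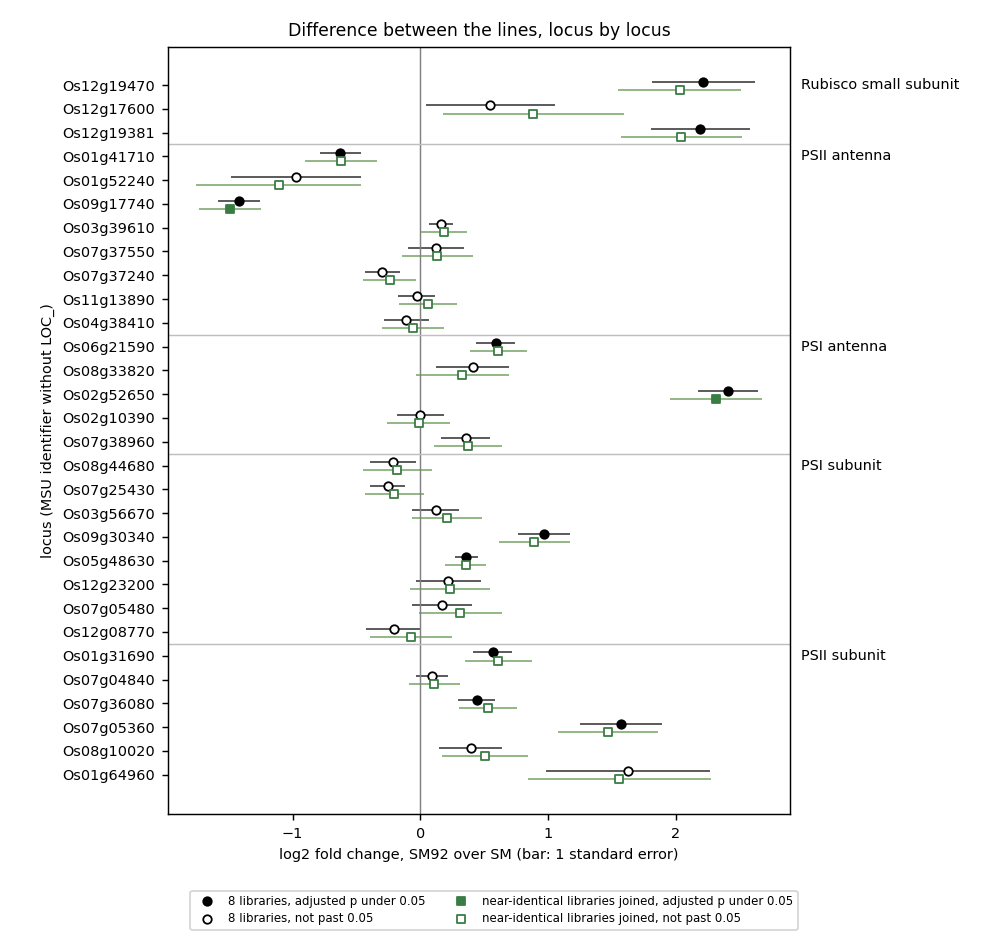
Log2 fold change of SM92 over SM for each of the 30 loci, by class; bars are 1 standard error, circles are the test over 8 libraries and squares the test with near-identical libraries joined (2 units of SM92 and 3 of SM). Filled symbols passed an edgeR adjusted p of 0.05: 11 circles and 2 squares are filled, at similar fold changes in both tests.

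Summed over each class, the lines differed in different directions. The Rubisco small subunit loci summed to 1634, 1603, 883 and 872 CPM in SM92 and 421, 317, 212 and 219 CPM in SM, with no overlap. The photosystem II subunit loci summed to 1096 to 1646 CPM in SM92 and 660.2 to 808 CPM in SM, also with no overlap. The photosystem II antenna loci had the opposite order, with 776 to 929 CPM in SM92 and 1052 to 1529 CPM in SM. Sums of the photosystem I antenna loci, 398 to 652 CPM in SM92 and 353 to 468 CPM in SM, and of the photosystem I subunit loci, 331 to 439 CPM in SM92 and 288 to 407 CPM in SM, overlapped. No test was applied to these sums.

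A single locus carried much of some sums. LOC_Os12g19381 made up 87.4% to 90.7% of the Rubisco small subunit count in SM92 and 73.7% to 90.3% in SM. LOC_Os07g05360 made up 42.9% to 57.1% of the photosystem II subunit count in SM92 and 24.4% to 43.2% in SM. LOC_Os01g41710 made up 45.7% to 47.35% of the photosystem II antenna count in SM92 and 46.2% to 52.3% in SM. The balance among classes does not depend on scaling between libraries. It is given on counts not divided by gene model length, and LOC_Os12g19381 spans 15886 bases. The ratios and shares that follow can therefore be compared between lines, but they do not rank one class above another. The Rubisco small subunit sum was 1.98, 2.06, 0.979 and 0.938 times the photosystem II antenna sum in SM92 libraries Y3, Y4, Y7 and Y8, and 0.275, 0.301, 0.191 and 0.177 times in SM libraries Y1, Y2, Y5 and Y6. The lowest SM92 ratio was thus more than 3 times the highest SM ratio. This ratio sets the class furthest above SM against the class whose SM92 sums lay below SM. Part of the gap follows from that choice. As a share of all counts on the 30 loci, the photosystem II antenna took 15.3% to 25.6% in SM92 and 39.1% to 42.4% in SM.

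**Figure D3:**
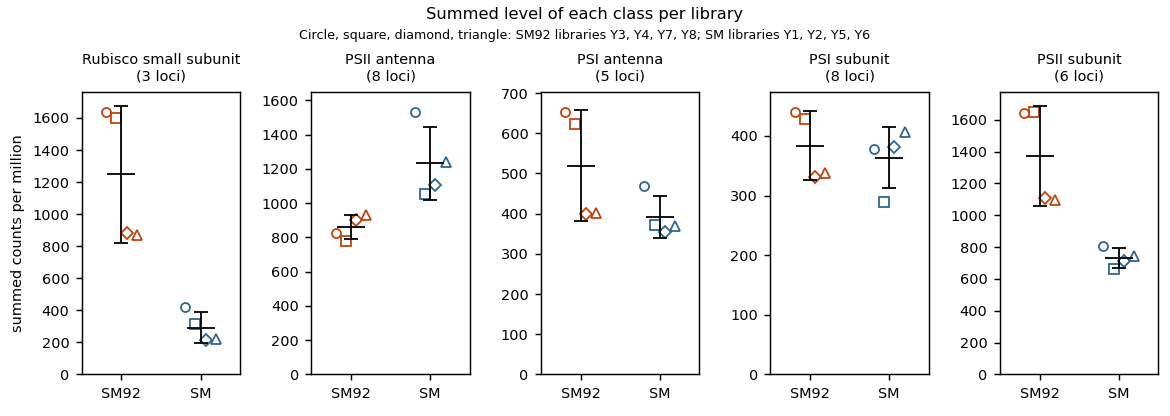
Summed TMM-scaled CPM of the loci of each class in each library, SM92 left of SM; symbols are single libraries and black marks give the mean ± SD of 4 libraries. SM92 lies above SM for the Rubisco small subunit (872 CPM or more against 421 or less) and photosystem II subunits, and below SM for the photosystem II antenna.

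Within a line, the ratio of the highest to the lowest library had a median of 1.39 over the 30 loci in SM92 and 1.53 in SM. Over the 23893 tested genes counted in every library the medians were 1.44 and 1.67. Those genes were not matched to the 30 loci for count level, so whether the loci vary unusually within a line was not tested. In SM92 the ratio ran from 1.04 for LOC_Os05g48630 to 6.45 for LOC_Os01g64960, and 3 loci were above 2. In SM it ran from 1.15 for LOC_Os07g37550 to 4.24 for LOC_Os12g17600, and 4 loci were above 2. These ranges take in both infestation states, whose part in them was not tested.

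The other steps of photosynthesis were described with lists of further nuclear genes. These lists were chosen with earlier results of these data known, so their shares beside those of all genes are descriptive only. All 8 loci listed for carbon fixation, which turns carbon dioxide into sugar phosphates, were higher in SM92, beside 16.7% of all genes tested. Their median log2 fold change was 1.32. LOC_Os11g47970 had 195, 196, 193 and 184 CPM in SM92 and 77.1, 49.04, 67.6 and 65.8 CPM in SM (log2 fold change 1.57 ± 0.14, SE; edgeR adjusted p = 0.000131). LOC_Os04g16680 had 39.1, 38.3, 22.6 and 24.5 CPM in SM92 and 8.32, 8.33, 3.68 and 3.21 CPM in SM (log2 fold change 2.40 ± 0.39, SE; edgeR adjusted p = 0.00216). The lines did not overlap for any of the 8, while 19.4% of all genes tested lay wholly above SM. Joining near-identical libraries left 4 of the 8 higher, LOC_Os11g47970 and LOC_Os04g16680 included, beside 4.38% of all genes. With 1 library left out, the edgeR adjusted p of LOC_Os03g03720 reached 0.117. Of 7 loci for electron transport and the plastid ATP synthase, 6 were higher and none lower, beside 16.7% and 19.7% of all genes tested. Their median was 0.63, and 1 passed with near-identical libraries joined. Leaving out 1 library brought the edgeR adjusted p of LOC_Os08g01380, LOC_Os06g01210, LOC_Os07g32880 and LOC_Os06g01850 to as much as 0.053, 0.0919, 0.112 and 0.114.

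Chlorophyll synthesis showed a mixture. Of 10 loci, 1 was higher and 4 were lower in SM92, beside 16.7% and 19.7% of all genes tested. Their median log2 fold change was -0.45. LOC_Os10g35840 had 238 to 269 CPM in SM92 and 141 to 173 CPM in SM (log2 fold change 0.75 ± 0.11, SE; edgeR adjusted p = 0.00125). LOC_Os04g58200 had 54.6, 51.96, 32.3 and 32.9 CPM in SM92 and 59.9, 90.0, 117 and 130 CPM in SM (log2 fold change -1.21 ± 0.29, SE; edgeR adjusted p = 0.0122). Of the lower loci, LOC_Os03g36540 and LOC_Os05g28200 reached an edgeR adjusted p of 0.122 and 0.0679 with 1 library left out. With near-identical libraries joined, edgeR called 0 of the 10, and 3 had an unadjusted p below 0.05. Of 7 loci for further photosystem and antenna subunits, 6 could be tested, with a median log2 fold change of 0.24. Neither edgeR nor DESeq2 called any (0 of 6 and 0 of 7), and 1 had an unadjusted edgeR p below 0.05, and 2 an unadjusted DESeq2 p. The 2 loci listed as regulators of chloroplast development gave 0.03 and -0.17, and the Rubisco small subunit locus listed for non-green organs, LOC_Os02g05830, gave -0.28, with edgeR adjusted p from 0.485 to 0.936. Of 2 loci for chlorophyll breakdown, LOC_Os01g12710 was lower, by a log2 fold change of -0.35 (edgeR adjusted p = 0.0362). That call was lost with near-identical libraries joined, at an edgeR adjusted p of 0.365, and the adjusted p reached 0.0901 with 1 library left out.

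**Figure D4:**
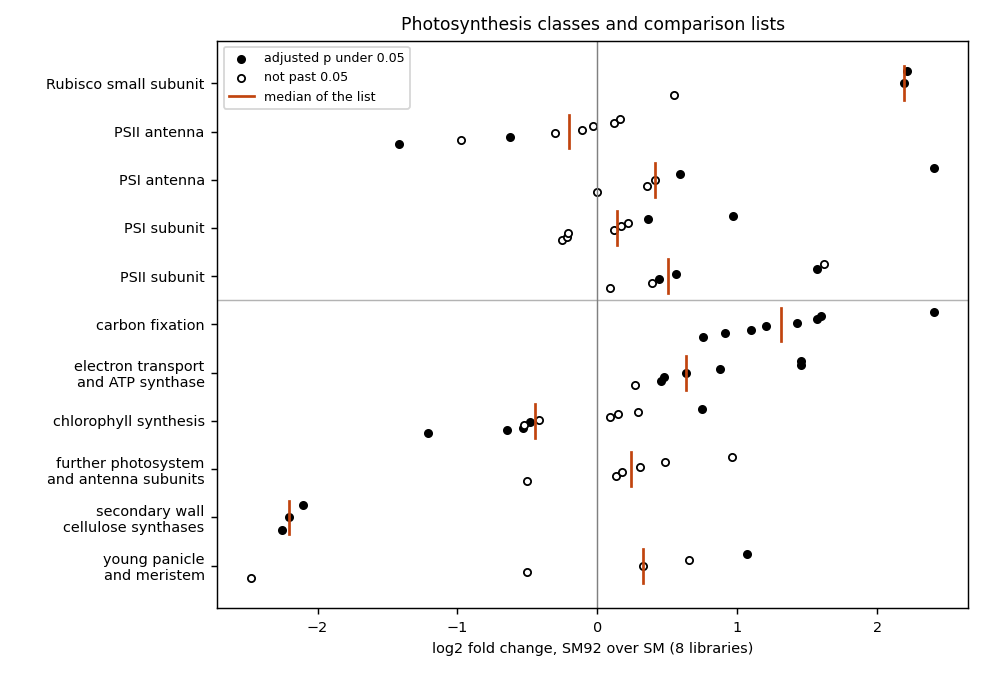
Log2 fold change of SM92 over SM for each locus of the 5 photosynthesis classes (above the grey line) and of 6 comparison lists (below it); each point is a locus, filled where the edgeR adjusted p over 8 libraries was below 0.05, and the orange bar is the median of the list. All 8 carbon fixation loci lie right of 0, with a median of 1.32, and the 3 secondary wall cellulose synthase loci lie left of it, near -2.20. Loci and lists were chosen with earlier results of these data known.

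Among genes that mark other tissues of the stem piece, 3 cellulose synthase loci and 1 panicle and meristem locus passed the test. Of all genes tested, 36.4% did, and these lists too were chosen with earlier results of these data known. No locus of these lists passed with near-identical libraries joined. The 3 secondary wall cellulose synthase loci were all lower in SM92 over 8 libraries, with log2 fold changes from -2.25 to -2.10 and edgeR adjusted p from 0.0146 to 0.0164, while joining near-identical libraries gave edgeR adjusted p from 0.151 to 0.161. They summed to 85.1, 85.1, 252.5 and 249.6 CPM in SM92 and 914, 269.98, 912 and 938 CPM in SM, so SM library Y2 stood near SM92 libraries Y7 and Y8. Of 6 loci listed for young panicle and meristem, 5 could be tested and 1 was higher, LOC_Os03g51690, with 158 to 169 CPM in SM92 and 64.0 to 98.1 CPM in SM (log2 fold change 1.07 ± 0.15, SE; edgeR adjusted p = 0.00125, and 0.0579 with near-identical libraries joined). The other 4 tested did not pass, with log2 fold changes of 0.65 for LOC_Os07g03770, 0.33 for LOC_Os01g10504, -0.50 for LOC_Os06g49840 and -2.47 for LOC_Os02g45770. That list summed to 303 to 337 CPM in SM92 and 192 to 291 CPM in SM. Within lines, some of its loci split by library pair. LOC_Os02g45770 had 0.05 and 0.13 CPM in SM libraries Y1 and Y2, against 8.63 and 8.64 CPM in Y5 and Y6. LOC_Os01g10504 had 10.7 and 10.7 CPM in SM92 libraries Y3 and Y4, against 1.53 and 1.53 CPM in Y7 and Y8. In SM it had 0.88, 0.74, 9.14 and 8.71 CPM. LOC_Os05g11414, not tested over 8 libraries, had 0, 5, 105 and 98 fragments in SM. The 2 anther loci summed to at most 1.51 CPM in SM92 and 2.09 CPM in SM. Whether the makeup of the tissue had a part in the differences at the photosynthesis loci was not tested.

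On the opposite strand, 4 of the 30 loci shared bases with another gene model, and none did on the same strand. LOC_Os01g52240, LOC_Os09g30340 and LOC_Os07g36080 lay wholly within such a model, and LOC_Os03g56670 shared 322 bases with one. The model opposite LOC_Os09g30340 had more fragments than the locus itself, 104% to 137% of its count in SM92 and 211% to 322% in SM. Its own log2 fold change was -0.13 (edgeR adjusted p = 0.274), against 0.97 for LOC_Os09g30340. The models opposite LOC_Os01g52240 and LOC_Os07g36080 had 20.9% to 60.5% and 8.94% to 9.55% of the locus count in SM92 and 7.81% to 32.7% and 9.36% to 25.4% in SM. The model opposite LOC_Os03g56670 had 47.5% to 71.3% of the locus count in SM92 and 39.6% to 75.9% in SM. Its own log2 fold change was 0.34 and passed (edgeR adjusted p = 0.04), against 0.12 for LOC_Os03g56670, which did not pass. The authors' counting used the strand of the reads, so fragments of these pairs were separated by strand.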

How the data were processed

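Libraries were strand-specific and made from total stem RNA after removal of rRNA, per the labels' protocols. The authors deposited raw fragment counts per gene model, made with featureCounts 2.0.0 on coordinate-sorted alignments with MSU release 7 gene models and strand option 2, per the file headers. Whole genes were counted, introns included, and only fragments with both ends aligned, without reads that align to several places, per the file headers. FastQC, Trim Galore, STAR and DESeq2 are named without versions in the submitters' processing notes. Start, end and length are the authors' deposited columns, and coordinates are those of MSU release 7.

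Count columns were assigned to a line through the table that each sample description names; 0 count columns were left unused. No column could be tied to infestation or replicate, so the planned infestation contrasts were not run. The planned test of summed levels between the lines, which needed only the line of each library, was not run either. Each line was counted in its own table, so line and table cannot be told apart. SM92 (4 libraries) was compared with SM (4) by edgeR 4.0.16 (R 4.3.3) with TMM factors (0.881 to 1.08), filterByExpr and the quasi-likelihood test, Benjamini-Hochberg adjusted over 24892 genes. The standard error is the log2 fold change divided by the square root of F. The procedure was tested on simulated data with independent libraries and no near-identical pairs, so that test does not cover the pairs found here. Near-identical libraries, summed in an alternative added after seeing the data, were those of a line with a mean chi-square per gene below 10 over genes with at least 100 fragments. Other alternatives were other scalings, no filter, DESeq2 1.42.0 and leaving out each library.

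The loci and lists were chosen with earlier results of these data known. Given in full are the 2 members of each class with the highest level per kilobase, called members up to 12, and any member with 0 counts in a library, of which there were none. LOC_Os01g64960 and the loci of other lists were singled out after their values were seen. No identifier of the 31 loci matched the RefSeq table supplied, so no names or sequences were attached. Python 3.11.15, pandas 2.3.3 and matplotlib were used for summaries and figures.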

Additional observations from a re-analysis of the deposited data

Results flagged for a closer look

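Among 60 sets of 4 libraries (30 loci in 2 lines), 2 held a library whose gap to its nearest neighbour was too large a part of the range by Dixon's 95% criterion. That criterion flags about 1 set in 20 when the 4 values are independent. The near-identical pairs and mixed infestation states break that condition, so the rate does not hold for these sets. LOC_Os02g10390, a photosystem I antenna locus, had 68.1 CPM in SM library Y1, against 56.8 to 57.8 CPM in the other SM libraries. LOC_Os07g25430, a photosystem I subunit locus, had 52.6 CPM in SM library Y2, against 74.0 to 75.3 CPM in the other SM libraries.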

How the results depend on the processing

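No paired analysis was possible because no library name holds a replicate number. Joining near-identical libraries, an alternative chosen after seeing the data, lowered the calls to 1 higher and 1 lower among the 30 loci, and to 1206 higher and 1385 lower among all genes; it leaves 5 units in place of 8. Scaling by library totals gave 5 higher loci, and leaving out the 20 most abundant gene models from the library size gave 6 and moved the median of all genes by -0.12. Leaving out 1 library at a time gave 8 to 9 higher and 1 to 3 lower loci, and 3246 to 4420 higher and 4105 to 5308 lower genes. The 1 lower locus was without SM92 library Y4, and the 3 were without SM library Y2. Where the library left out belonged to a near-identical pair, its partner stayed in, so this check is weak for those pairs. DESeq2 called 12 loci, including all 11 of edgeR. Without LOC_Os12g19381 the log2 ratio of the Rubisco small subunit sums was 1.46 in place of 2.09, and without LOC_Os07g05360 that of the photosystem II subunit sums was 0.44 in place of 0.91. Without LOC_Os01g41710 the log2 ratio of the photosystem II antenna sums was -0.42 in place of -0.52. The photosystem I subunit sum, 0.08, took values from -0.07 to 0.14 across settings, so it has no stable direction. No called locus changed direction under any alternative run. DESeq2 size factors and no filter on low counts left 9 and 8 higher loci and 2 lower. The alternatives planned for the infestation contrasts were not run, since those contrasts could not be made.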
